A study of Mus musculus with 8 samples.

Results

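The genes described here are the DNA methyltransferases Dnmt1, Dnmt3a and Dnmt3b, the catalytically inactive cofactor Dnmt3l, and Uhrf1, which brings Dnmt1 to hemimethylated DNA. They are 5 of the 54281 genes in the deposited tables, chosen by symbol; each symbol had 1 row, and all 5 passed the filter on low counts. Their transcripts were measured by poly(A) RNA-seq in epiblast-like cells (EpiLCs), a formative pluripotent state reached from naive mouse embryonic stem cells (ESCs). The KO lines carried the Tet1 tm1Koh allele (Tet1 KO: KO1, KO9, KO15 and KO25) and were set against 4 wild-type lines (WT: WT7, WT12, WT17 and WT34); each was a separate ESC line and gave 1 library. Per the study, KO and WT lines were derived from blastocysts as male littermate pairs, but which line pairs with which is not given in the sources used here. All lines shared the B6129S6F1 background, prior culture with MEK and GSK3 inhibitors and LIF, and conversion for 2 days in N2B27 medium containing bFGF (12 ng/ml) and 1% KOSR. The comparison asks whether EpiLCs without the dioxygenase TET1, which oxidizes 5-methylcytosine, differ in transcripts of the enzymes that write that mark.

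Methylation of cytosine at CpG sites is copied after replication by DNMT1, with UHRF1 reading the hemimethylated site and ubiquitinating histone H3 to recruit it. DNMT3A and DNMT3B place new methyl groups, and DNMT3L stimulates both without catalysing the reaction itself. In the mouse epiblast the de novo enzymes are switched on as naive pluripotency is left, when the genome regains methylation, and Dnmt3a, Dnmt3b and Dnmt3l are widely used as transcripts of that transition. Messenger RNA levels do not measure the enzymes' activity.

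Titles and cell line labels disagree for WT12, whose label reads WT9, and for WT17, whose label reads WT12; titles are used here. Each table column has a suffix that no label explains, b2 for KO15, KO25, WT12 and WT34, and b1 for KO1, KO9, WT7 and WT17. Count totals were 13916576 to 23680839 per library. Tet1 itself, the check of the labels, had 38.4 to 54.2 CPM (counts scaled to library size) in KO lines, against 559 to 851 CPM in WT lines. In TPM, which also depends on assigned length, the contrast was smaller, at 21.6 to 32.0 TPM in KO lines, against 60.5 to 91.5 TPM in WT lines. Library WT12 stood apart in several of the values below, some of which are also given without it.

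The promoters of Dnmt1 and Uhrf1 are shown first because these transcripts varied together across these same libraries. Whether the promoter letters bear on that was not tested. In RefSeq windows of 300 bases around each start site (GRCm38.p6), the letters TTTCGCGC and TTTGGCGC, which are forms of the E2F consensus, were searched on both strands. They occurred in 1 of 3 Dnmt1 windows, in 1 of 2 Uhrf1 windows and in none of the 3 Dnmt3a, 1 Dnmt3b and 3 Dnmt3l windows, against 0.813% of all 32851 windows. The Dnmt1 window also held TTTGGCGC, 34 bases after its start site, and no match overlapped another. The stretches with TTTCGCGC read as follows, 5′ to 3′ along each gene, with the match in capitals; in Dnmt1 it lies on the opposite strand and so appears as its reverse complement. 
Dnmt1 (chr9:20952824-20952853, minus strand, 219 bases before the start site): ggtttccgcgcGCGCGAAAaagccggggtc
Uhrf1 (chr17:56304117-56304146, plus strand, 185 bases before the start site): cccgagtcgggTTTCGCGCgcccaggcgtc
In GENCODE M21 the Dnmt1 stretch overlaps the first exon of Dnmt1-201, which starts upstream, and the Uhrf1 stretch is intronic in transcripts that start upstream. A match describes the letters of the window and was not tested as a binding site. The share over all windows was not matched for base composition.

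Dnmt3b is shown for another reason, since part of its reads cannot be told from those of Dnmt3c, a rodent de novo enzyme of the male germline whose gene starts 8.92 kb downstream on chromosome 2. Of the 5242 distinct 50-base stretches in Dnmt3b transcripts, the read length of these libraries, 514 (9.81%) also occur in Dnmt3c, where they make up 23.6% of the total. The longest coding run common to both genes is 287 bases, and its first 50 bases lie within a single coding exon of each gene.
Dnmt3b (chr2:153678471-153678520, plus strand, GRCm38) and Dnmt3c (chr2:153723482-153723531, plus strand): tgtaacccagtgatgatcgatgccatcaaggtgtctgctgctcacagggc
A read of these bases alone fits both genes equally well. The same check found 15.4% of Uhrf1 stretches shared with other genes, mostly with Gm5648, under 1% of Dnmt1 and Dnmt3a stretches, and none of Dnmt3l.

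Neither maintenance gene was called different between KO and WT lines. Dnmt1 (ENSMUSG00000004099.16; chr9:20907209-20959888), the maintenance methyltransferase, was at 50.2, 47.9, 54.1 and 50.2 TPM (transcript abundance corrected for length and library size) in KO1, KO9, KO15 and KO25, against 58.5, 54.3, 55.6 and 55.8 TPM in WT7, WT12, WT17 and WT34. In TPM every KO line therefore lay below every WT line, although KO15 and WT12 were only 0.188 TPM apart. The mean was 50.6 ± 2.56 TPM in KO lines and 56.1 ± 1.78 TPM in WT lines (SD, n = 4 each). The log2 difference was −0.15 with an exact two-sided permutation p of 0.0286, which is the smallest that 4 against 4 lines allow. This permutation test was chosen after seeing the data. Adjusted over the genes of the set, its p was 0.143, and 0.278 with labels permuted within suffix. Neither value could pass for Dnmt1 alone. A gene alone at 0.0286 gets 0.143 after adjustment, and within suffix the smallest p before adjustment is 0.0556. These adjusted values therefore do not show the absence of a difference. In the limma fit over all 13838 genes with enough TPM the adjusted p for Dnmt1 was 1.00, and 1.8% of all genes tested had every KO line below every WT line in TPM. On normalized counts the groups overlapped: Dnmt1 was at 399, 386, 407 and 353 CPM for lines KO1, KO9, KO15 and KO25, against 442, 379, 408 and 413 CPM for lines WT7, WT12, WT17 and WT34. The fitted log2 difference was −0.09 (95% interval −0.26 to 0.09, edgeR quasi-likelihood, adjusted p = 0.998), so Dnmt1 was called on neither scale across genes.

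Uhrf1 (ENSMUSG00000001228.14; chr17:56303321-56323486), the reader that recruits DNMT1, was at 155, 150, 150 and 120 TPM in KO1, KO9, KO15 and KO25, against 166, 117, 155 and 145 TPM in WT7, WT12, WT17 and WT34. The lowest lines of the KO and WT groups, KO25 and WT12, were nearly level, and the ranges overlapped almost fully. The fitted log2 difference was 0.02 (95% interval −0.25 to 0.29, edgeR adjusted p = 0.998).

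Among the de novo genes, Dnmt3a (ENSMUSG00000020661.15; chr12:3806007-3914443) was high in some libraries and low in others of each genotype. It was at 243, 244, 387 and 393 TPM in KO1, KO9, KO15 and KO25, against 241, 267, 274 and 421 TPM in WT7, WT12, WT17 and WT34. The high libraries were KO15, KO25 and WT34, all of suffix b2, and the remaining b2 library, WT12, sat among the b1 lines. The KO and WT groups overlapped over nearly their whole range, with a log2 difference of 0.11 (95% interval −0.38 to 0.60, edgeR adjusted p = 0.998).

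Dnmt3b (ENSMUSG00000027478.15; chr2:153649450-153687730), the main de novo enzyme of the early epiblast, was the steadiest of the catalytic de novo pair. It was at 237, 261, 264 and 246 TPM in KO1, KO9, KO15 and KO25, against 218, 263, 270 and 227 TPM in WT7, WT12, WT17 and WT34. All KO lines fell inside the WT range. The log2 difference was 0.07 (95% interval −0.11 to 0.25, edgeR adjusted p = 0.998), an interval that leaves out rises above 1.19-fold.

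Dnmt3l (ENSMUSG00000000730.13; chr10:78041947-78063622), the cofactor, spread more widely than any other gene of the set. It was at 69.0, 59.6, 85.9 and 85.0 TPM in KO1, KO9, KO15 and KO25, against 67.9, 29.9, 51.2 and 88.6 TPM in WT7, WT12, WT17 and WT34. Only WT12 and WT17 fell below the KO range, and WT34 had the highest level of all. Its log2 difference of 0.34 was the largest of the 5 genes, with the widest interval (−0.32 to 1.00, edgeR adjusted p = 0.998), and leaving out single lines gave 0.10 (without WT12) to 0.63 (without WT34). Dnmt3l lies on the chromosome of Tet1, 15.1 Mb away.

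**Figure D1:**
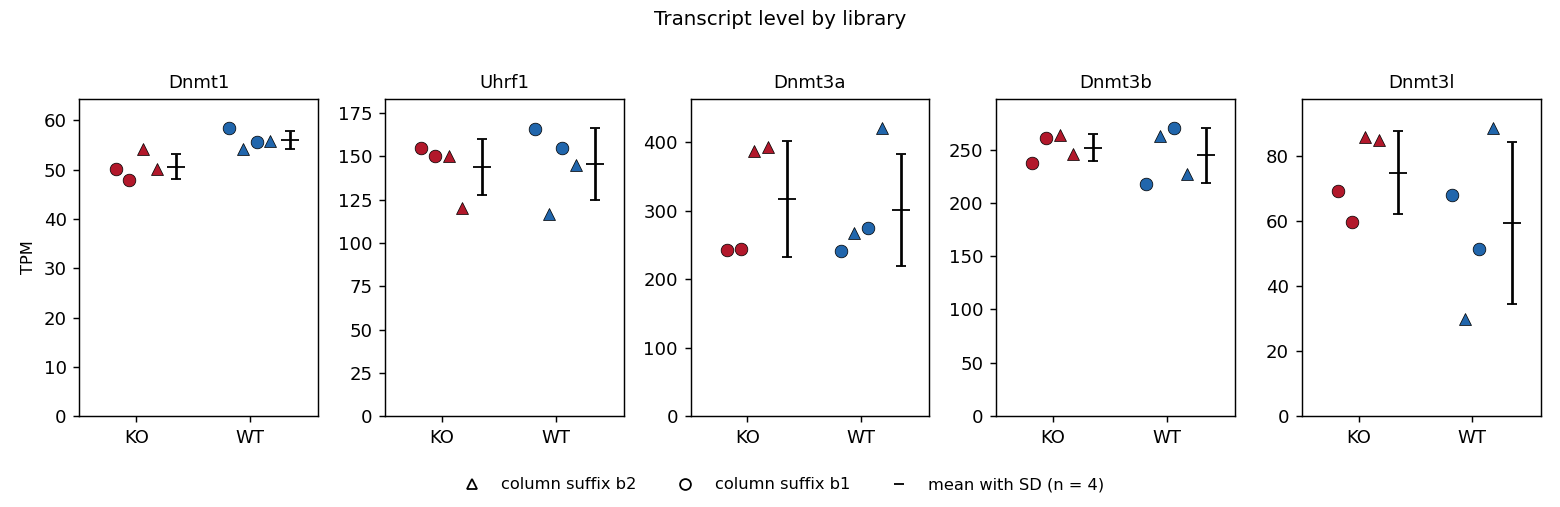
Level of each gene (y axis, TPM from 0) in the 4 KO libraries, left, and the 4 WT libraries, right; triangles are suffix b2, circles suffix b1, and bars give the mean with SD. Dnmt1 points are 47.9 to 54.1 TPM in KO lines and 54.3 to 58.5 TPM in WT lines, while Dnmt3a separates into 3 high b2 libraries and 5 lower ones.

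Together, 0 of the 5 genes passed an adjusted p of 0.05 between KO and WT lines, and 0 had an unadjusted p under 0.05 in edgeR; DESeq2 and limma also called 0. Over all genes 7 of 17272 (0.0405%) passed in edgeR, 0.614% in DESeq2 and 0.0145% in limma, and a count of 0 among 5 genes is near that background. With the suffix as a block the test called 28 genes (0.162%) and 0 of the 5, whose adjusted p ran from 0.654 for Dnmt1 to 0.956 for Uhrf1. The block narrowed the interval for Dnmt3a to −0.18 to 0.34, against −0.38 to 0.60 without it. Each gene's KO and WT lines overlapped in CPM, as they did for all but 4.19% of genes tested.

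Within suffix b2, the log2 differences between 2 KO and 2 WT lines were −0.05 for Dnmt1, 0.09 for Uhrf1, 0.24 for Dnmt3a, 0.10 for Dnmt3b and 0.47 for Dnmt3l. Within suffix b1 they were −0.12 for Dnmt1, −0.04 for Uhrf1, −0.07 for Dnmt3a, 0.05 for Dnmt3b and 0.20 for Dnmt3l. Dnmt1, Dnmt3b and Dnmt3l had the same sign in both, whereas Uhrf1 and Dnmt3a had opposite signs, and 0 of these 10 differences passed (edgeR, lowest adjusted p = 0.563), where 0.0289% of all genes passed in b2 and 0.109% in b1. The difference between the suffixes in the genotype effect was tested as an interaction. It passed for 0 of the 5 genes and for 0 of 17272 genes (0%) in edgeR, of which 227 had an unadjusted p under 0.05, none of them among the 5, while DESeq2 called 2 genes (0.0116%), again none of the 5. The interval of the interaction was widest for Dnmt3l, from −1.10 to 1.61.

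**Figure D2:**
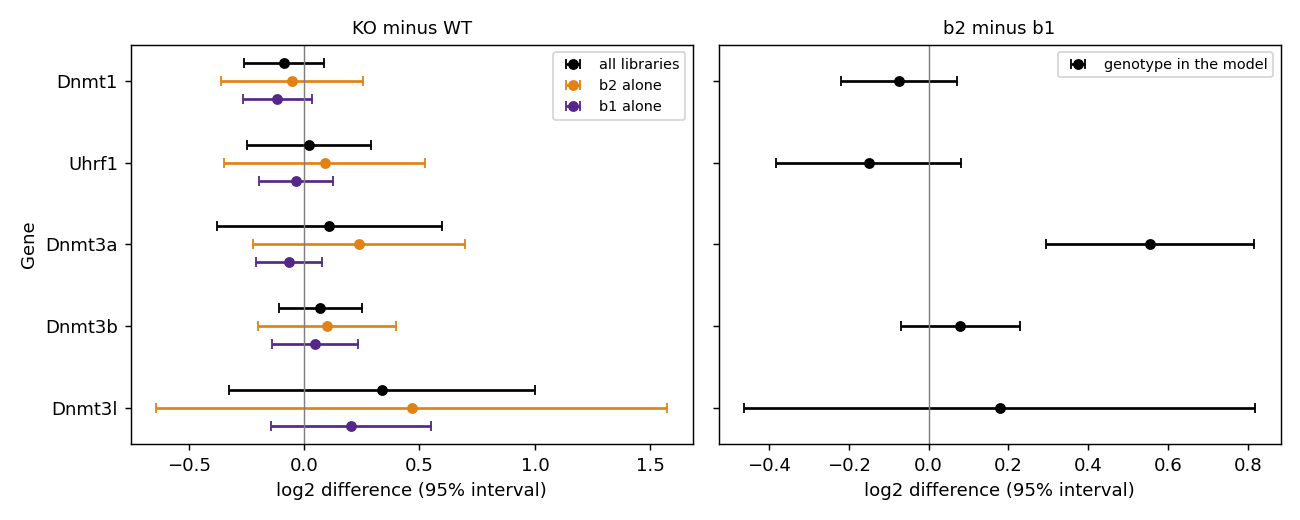
Log2 differences with 95% intervals (edgeR) for each gene, KO minus WT on the left in all libraries, in b2 alone and in b1 alone, and b2 minus b1 on the right. All KO minus WT intervals include 0, and Dnmt3a, at 0.56 (0.29 to 0.82), is alone in excluding 0 for b2 minus b1.

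The suffix separated Dnmt3a where genotype did not. With genotype in the model, Dnmt3a was higher in b2 libraries by 0.56 on the log2 scale (SE 0.12, 95% interval 0.29 to 0.82, edgeR adjusted p = 0.00839). In CPM it was at 899, 942, 631 and 939 in KO15, KO25, WT12 and WT34, against 561, 570, 570 and 613 in KO1, KO9, WT7 and WT17. The b2 libraries thus all lay above the b1 libraries in CPM, as they did for 13.9% of genes tested, but not in TPM, where WT17 was above WT12. This is 1 of 5 genes called, in a comparison that called 24.6% of all genes tested (13.7% as higher in b2), so a call here is common. Over all genes 2359 were called higher and 1894 lower in b2. With library size alone in place of TMM, 43.5% of the genes called were higher in b2, against 2359 of 4253 with TMM. Without WT12 the difference was 0.67, in a fit that called 27.3% of all genes. Among KO lines alone it was 0.70 and passed (edgeR adjusted p = 0.00904; 5.79% of all genes called). It did not pass among WT lines alone (0.40, edgeR adjusted p = 0.303; 1.54% of all genes called) or in limma on log2(TPM + 1) (0.53, adjusted p = 0.0798; 10.1% called). What the suffix stands for was not tested.

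The other 4 genes were not called between suffixes. The log2 difference, b2 minus b1, was −0.07 for Dnmt1 (95% interval −0.22 to 0.07), −0.15 for Uhrf1 (−0.38 to 0.08), 0.08 for Dnmt3b (−0.07 to 0.23) and 0.18 for Dnmt3l (−0.46 to 0.82). Dnmt3l depended on single libraries. Without WT12 it was 0.44 higher in b2 (edgeR adjusted p = 0.0269). That fit called 2 of the 5 genes and 27.3% of all genes tested. Without WT34 the sign for Dnmt3l turned to −0.19.

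Ratios between the genes put the same values on a scale that does not depend on library size. The ratios below are of TPM, so they do depend on the length assigned to each gene. In CPM, not corrected for length, Dnmt3b over Dnmt3a averaged 3.13 in KO lines and 3.17 in WT lines. Dnmt3a plus Dnmt3b over Dnmt1 averaged 7.68 and 6.84 in CPM. The summed level of Dnmt3a and Dnmt3b over that of Dnmt1 was 9.56, 10.5, 12.0 and 12.7 in KO1, KO9, KO15 and KO25, against 7.84, 9.76, 9.80 and 11.6 in WT7, WT12, WT17 and WT34. The KO lines were shifted upward but overlapped the WT lines, with means of 11.2 ± 1.43 in KO lines and 9.76 ± 1.54 in WT lines (SD, n = 4 each). The log2 difference was 0.21 (exact two-sided permutation p = 0.200, adjusted over the 5 ratios 0.667). Within b2 it was 0.22 and within b1 0.20, and permuting labels within suffix gave an exact p of 0.111, where 0.0556 is the smallest possible.

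The ratio of the 3 de novo genes to Dnmt1 plus Uhrf1 was 3.35 ± 0.724 in KO lines and 3.03 ± 0.568 in WT lines (SD, n = 4 each; exact permutation p = 0.571, adjusted 0.714). It was ordered more by suffix, from 3.27 to 4.25 in b2 libraries and from 2.35 to 2.85 in b1 libraries, which did not overlap. Among single genes, 13.9% of those tested had every b2 library above every b1 library in CPM, so such a separation is common. Dnmt3a, part of this ratio, was itself higher in b2. The ratio Dnmt3b to Dnmt3a was 0.837 ± 0.217 in KO lines and 0.853 ± 0.213 in WT lines (SD, n = 4 each; exact permutation p = 0.943), and 0.680, 0.625, 0.984 and 0.539 in KO15, KO25, WT12 and WT34, against 0.976, 1.07, 0.905 and 0.986 in KO1, KO9, WT7 and WT17. WT12 again lay among the b1 libraries.

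Dnmt3l relative to Dnmt3a plus Dnmt3b held within a narrow band in KO lines, at 0.144, 0.118, 0.132 and 0.133 in KO1, KO9, KO15 and KO25, against 0.148, 0.0564, 0.0941 and 0.137 in WT7, WT12, WT17 and WT34. The WT lines spread on both sides of the KO lines, and the log2 difference of 0.37 did not pass (exact permutation p = 0.400, adjusted 0.667). That difference was 0.59 within b2 and 0.14 within b1, and it was 0.084 without WT12. Uhrf1 over Dnmt1 was 2.85 ± 0.340 in KO lines and 2.59 ± 0.310 in WT lines (SD, n = 4 each; exact permutation p = 0.314, adjusted 0.667). No ratio passed the test, and KO and WT lines overlapped in each.

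**Figure D3:**
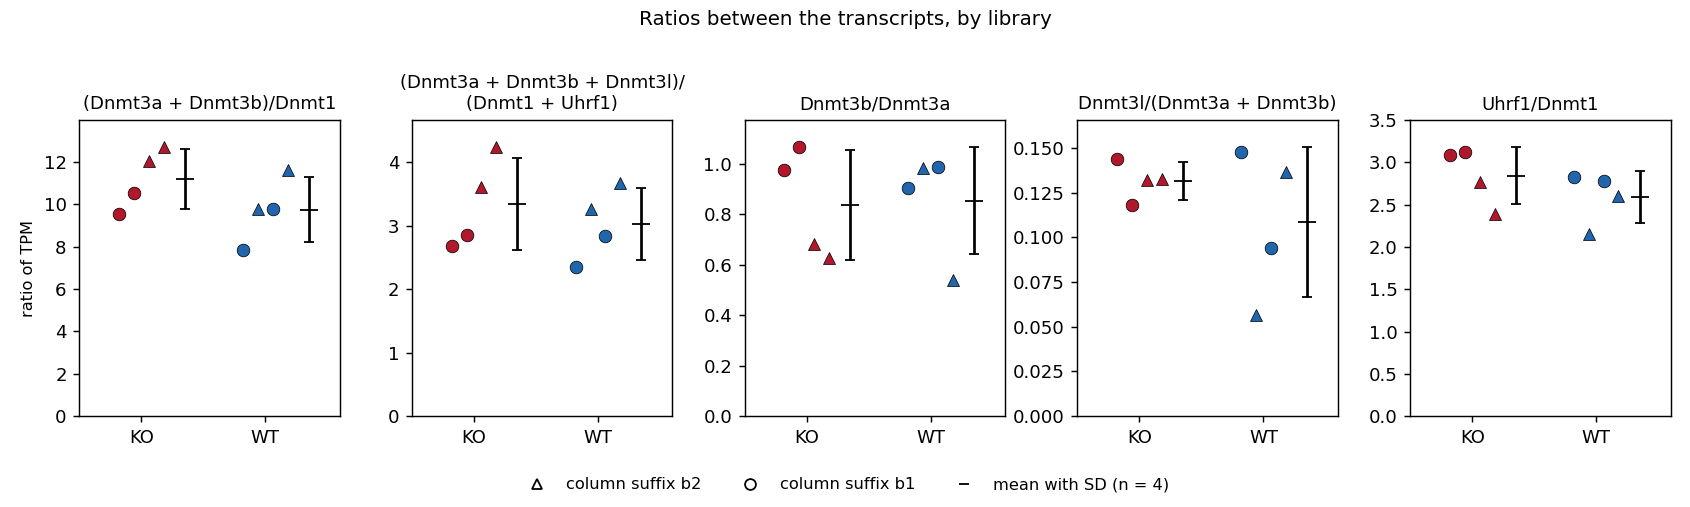
The 5 ratios of TPM (y axes from 0) in KO libraries, left, and WT libraries, right, with suffix b2 as triangles, b1 as circles and bars for the mean with SD. KO and WT libraries overlap in every panel, and in the ratio Dnmt3b to Dnmt3a the 3 lowest points, 0.539 to 0.680, are b2 libraries.

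The order of the genes depended on how length was treated. In TPM the mean over the 8 lines was 309 for Dnmt3a, 248 for Dnmt3b, 145 for Uhrf1, 67.1 for Dnmt3l and 53.3 for Dnmt1, placing them 397th, 483rd, 770th, 1546th and 1897th of the 17272 genes tested. Dnmt3b and Uhrf1, and Uhrf1 and Dnmt3l, kept that order in 8 of 8 lines, Dnmt3a was above Dnmt3b in 7 and Dnmt3l above Dnmt1 in 6. In counts not corrected for length, Dnmt3b had 2158 CPM on average, the 22nd highest of all genes tested, and Dnmt3a 716 CPM.

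Count and TPM are linked by the transcript length that the quantification assigned to each gene. Count divided by TPM, scaled on 431 genes with a single transcript, gave approximate effective lengths of 3942 ± 96.3 bases for Dnmt3b and 1050 ± 39.7 bases for Dnmt3a (SD, n = 8). Dnmt3a has 18 annotated transcripts in GENCODE M21, the coding ones from 467 to 9685 bases, so its assigned length was far under that of its longest form, whereas the coding transcripts of Dnmt3b span 3630 to 4320 bases. The approximate lengths were 3384 ± 151 bases for Dnmt1, 1132 ± 37.0 bases for Dnmt3l and 1633 ± 55.3 bases for Uhrf1 (SD, n = 8), and the longest coding transcripts of these genes are 5870, 1822 and 3586 bases. Dividing CPM by the longest coding transcript in kb instead gave Dnmt3b 499, Uhrf1 145, Dnmt3l 92.4, Dnmt3a 73.9 and Dnmt1 67.8 CPM per kb. Dnmt3a thus moved from above Dnmt3b to between Dnmt3l and Dnmt1, and it exceeded Dnmt1 in only 4 of 8 lines. Which transcripts were present was not measured by these gene-level tables.

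**Figure D4:**
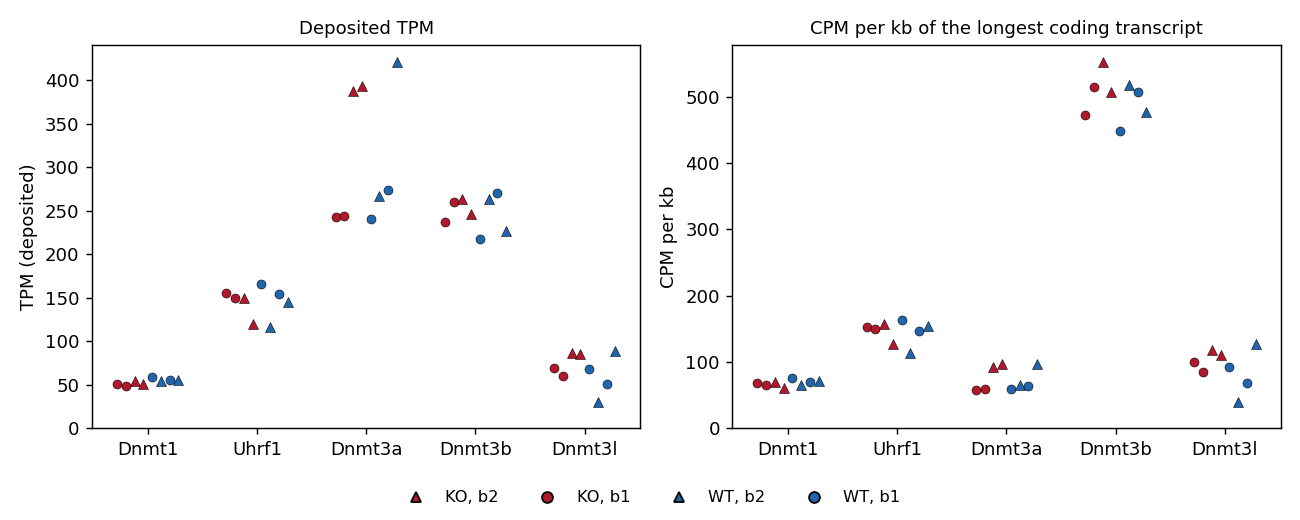
Level of each gene in the 8 libraries in deposited TPM (left) and in CPM per kb of the longest coding transcript (right), both from 0; red is KO, blue WT, triangles b2, circles b1. Dnmt3a is highest by mean in TPM (309) and next to lowest on the right (73.9), where Dnmt3b stands apart at 448 to 553.

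No difference in assigned length between genotypes passed the test. The KO minus WT log2 difference of relative length was 0.04 for Dnmt1, 0.02 for Uhrf1, 0.0024 for Dnmt3a, 0.0011 for Dnmt3b and 0.0016 for Dnmt3l (exact permutation, lowest p = 0.543). Dnmt1's length was 3190 to 3589 bases in KO lines and 3257 to 3491 bases in WT lines, and the longer lengths of KO1 (3589) and KO9 (3578) went with their TPM being lower, relative to WT, than their CPM.

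Variation between lines separated steady from variable genes irrespective of genotype. The SD of log2 CPM over the 8 lines was 0.09 for Dnmt3b, 0.10 for Dnmt1, 0.18 for Uhrf1, 0.34 for Dnmt3a and 0.54 for Dnmt3l, against a median of 0.29 over all genes tested. Only 5.87% of genes varied less than Dnmt3b and 6.04% less than Dnmt1, and 80.7% varied less than Dnmt3l. These shares were not matched for expression level, and Dnmt3b and Dnmt1 ranked 22nd and 378th of 17272 genes by mean CPM.

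Dnmt1 and Uhrf1, whose promoter windows are printed above, varied together with Pearson r = 0.77 and Spearman rho = 0.79 over the 8 libraries, a description of log2 CPM that share 1 normalization per library. The value was 0.72 after suffix means were removed and 0.92 without WT12. KO25 and WT12 were the low libraries for both genes, at 353 and 379 CPM of Dnmt1 and at 453 and 409 CPM of Uhrf1. Dnmt3a and Dnmt3l had r = 0.53 and rho = 0.45, with 0.87 after suffix means were removed and 0.74 without WT12. Dnmt3l and Uhrf1 had r = 0.67, which was 0.81 after suffix means were removed and 0.01 without WT12. Dnmt3b was negatively related to Dnmt1, with r = −0.50 and rho = −0.45 (r = −0.38 after suffix means were removed and −0.46 without WT12). With Dnmt3a it had r = 0.35, which was −0.054 after suffix means were removed.

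**Figure D5:**
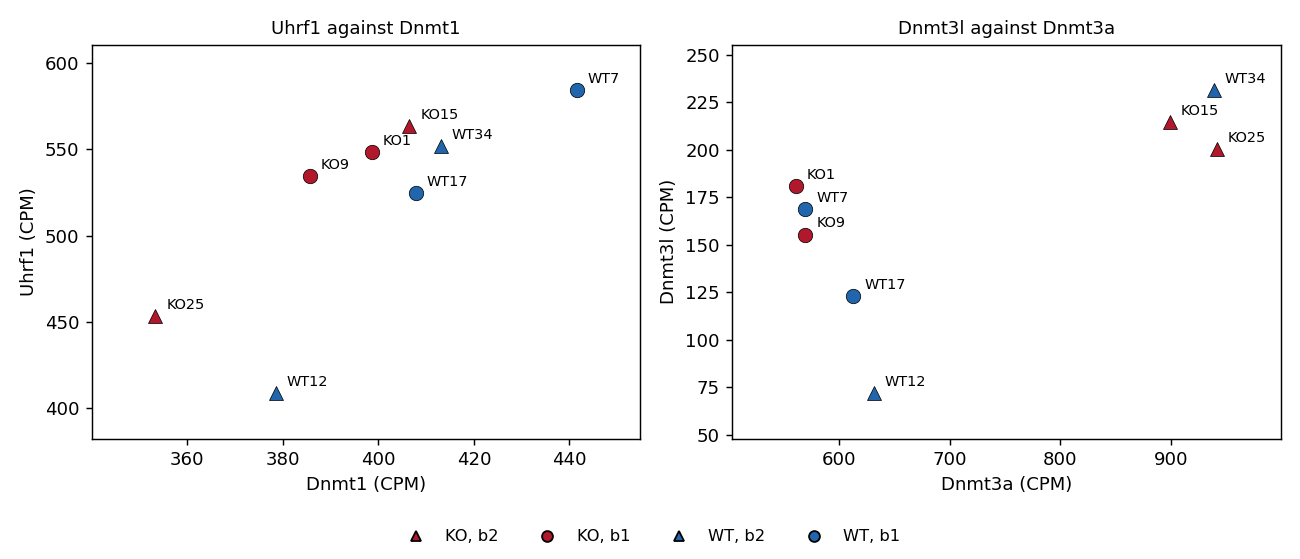
Uhrf1 against Dnmt1 (left) and Dnmt3l against Dnmt3a (right), in CPM per library, with line names, red for KO, blue for WT, triangles for b2 and circles for b1; axes do not start at 0. On the left KO25 and WT12 are low for both genes, and on the right KO15, KO25 and WT34 form a group at 899 to 942 CPM of Dnmt3a from which WT12, at 631 and 72.0 CPM, is separate.

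Of 10194 named genes with a mean of at least 5 CPM, those most like each member over the 8 libraries included Atg2a (r = 0.97) and Rnf34 (0.96) for Dnmt1, and Kars (0.99), Ankrd28 (0.99) and Gtf2h4 (0.98) for Uhrf1. They included Zfp654 (0.99), Ppp1r15a (0.99) and Cyp51 (0.98) for Dnmt3a, Dapp1 (0.93), Timm10b (0.93) and Msra (0.92) for Dnmt3b, and Map7 (0.98), Tnnt1 (0.98) and Morc1 (0.98) for Dnmt3l. With so many genes and 8 libraries such values arise readily and are given as a description.

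Other genes of the pathway were grouped in lists by function. Of 9 partners of the maintenance enzymes tested, 0 passed between KO and WT lines, with a median log2 difference of 0.0033 beside −0.0044 over all genes tested. Pclaf, a PCNA-associated factor, had the smallest p, with 80.6, 94.9, 74.0 and 84.0 CPM for lines KO1, KO9, KO15 and KO25, against 102, 100.0, 105 and 90.9 CPM for lines WT7, WT12, WT17 and WT34 (log2 difference −0.25, edgeR adjusted p = 0.791). Cdca7, which activates the remodeller HELLS, had a log2 difference of 0.19 (adjusted p = 0.825). Between suffixes 24.6% of all genes tested were called, so the suffix calls given for these lists are common. Usp7, a deubiquitinase that binds DNMT1 and UHRF1, was higher in b2 by 0.23 (edgeR adjusted p = 0.0196). Uhrf2, the paralogue of Uhrf1, was lower in b2 (log2 difference −0.31, edgeR adjusted p = 0.0314).

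Of 8 genes around de novo methylation 7 were tested, and 0 passed between genotypes (median log2 difference −0.0047). Dnmt3c had the smallest p, but through 1 library: it was at 0.516, 0.351, 0.831 and 0.948 CPM for lines KO1, KO9, KO15 and KO25, against 1.04, 76.9, 0.659 and 0.850 CPM for lines WT7, WT12, WT17 and WT34. WT12 held 1845 counts of it, where the other 7 libraries held 6.77 to 19.3, and they made up 3.33% of WT12's Dnmt3b and Dnmt3c counts. Dnmt3b itself was at 2233 CPM in WT12, the highest of the WT lines and below KO15 (2388 CPM). The source of the Dnmt3c counts was not tested. Between suffixes Setd2, which writes the H3K36 trimethylation that DNMT3B recognizes, was higher in b2 by 0.32 (edgeR adjusted p = 0.0110), and the H3K9 methyltransferase Ehmt2 was lower in b2 (log2 difference −0.36, adjusted p = 0.0111).

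In the methyl donor cycle 0 of 9 genes passed between genotypes (median log2 difference 0.06), with the smallest p for Mtr, methionine synthase (0.34, edgeR adjusted p = 0.793). Mat2a, which makes S-adenosylmethionine, the donor for all these enzymes, was the largest suffix difference of the cycle. It was at 548, 324, 395 and 515 CPM in KO15, KO25, WT12 and WT34, against 219, 179, 196 and 232 CPM in KO1, KO9, WT7 and WT17. The log2 difference was 1.11 (edgeR adjusted p = 0.00145) and the suffixes did not overlap, as for the 13.9% of genes tested with all b2 libraries higher. For Mat2a, WT12 lay with the other b2 libraries, unlike for Dnmt3a.

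Of 8 methyl-CpG readers 0 passed between genotypes, with a median log2 difference of −0.15, and Zbtb33 (Kaiso) was higher in b2 by 0.74 (edgeR adjusted p = 0.00726). Among the enzymes that act against methylation, 1 of 4 passed between genotypes, which was Tet1. Tdg, the glycosylase that removes oxidized cytosine, had a log2 difference of 0.32 (adjusted p = 0.847), and Tet3 was higher in b2 by 0.99 (adjusted p = 0.000235).

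Markers of proliferation and state gave no genotype call beside these results. Of 15 S phase genes, a set relevant to Dnmt1 and Uhrf1 because both are expressed with replication, 0 passed, and their summed level was 3728 to 4205 CPM in KO lines and 3623 to 4061 CPM in WT lines. KO25 and WT12, the low libraries for Dnmt1 and Uhrf1, had S phase sums of 3728 and 3623 CPM. The other b2 libraries, KO15 and WT34, had sums of 4205 and 4061 CPM. The b1 libraries KO1, KO9, WT7 and WT17 had sums of 3740, 3746, 3792 and 3712 CPM. The part of S phase genes in the Dnmt1 and Uhrf1 values was not tested. Core pluripotency genes (0 of 3 passed; 982 to 1199 CPM in KO lines, 924 to 1174 CPM in WT lines) and formative genes (0 of 5; 355 to 633 CPM in KO lines, 309 to 569 CPM in WT lines) were present in every library. Naive genes (0 of 6) summed to 190 to 219 CPM in KO lines and 84.8 to 249 CPM in WT lines. The lowest sum was that of WT12, also the library lowest in Dnmt3l, with Esrrb at 28.1 CPM and Nr0b1 at 2.79 CPM there. The part of cell state in the WT12 values was not tested. Between suffixes, where 13.7% of all genes tested were called higher in b2 and 24.6% in either direction, 3 of 5 formative genes were higher in b2, among them Sall2 (0.79, edgeR adjusted p = 0.0130) and Pou3f1 (0.89, adjusted p = 0.0189). Of the core genes 1 of 3 was higher in b2, which was Sall4 (0.86, adjusted p = 3.47e-05), and 0 of 6 naive genes were called. S phase genes were higher in b2 for 3 of 15 and lower for 1. Of the lists above, 1 of 9 maintenance partners was higher and 1 lower, 1 of 7 de novo genes higher and 3 lower, 2 of 9 methyl donor genes higher and 0 lower, and 2 of 8 readers higher and 1 lower.

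Markers of other cells were low. Primitive streak genes summed to 3.46 to 7.73 CPM in KO lines and 1.18 to 3.88 CPM in WT lines (0 of 2 tested passed), extraembryonic endoderm genes to 12.9 to 16.6 CPM in KO lines and 10.7 to 14.4 CPM in WT lines (0 of 5 passed), and feeder fibroblast genes to 20.3 to 38.2 CPM in KO lines and 14.8 to 28.4 CPM in WT lines (0 of 4). Median log2 differences were 1.26, 0.46 and −0.09 in that order. The feeder sum rested mostly on Thy1 (6.37 to 32.8 CPM) and Dcn (2.75 to 8.25 CPM). Col1a1, Col1a2 and Col3a1 reached at most 1.56, 2.17 and 3.87 CPM. The streak genes tested, T and Eomes, were higher in KO lines by 1.39 and 1.12 (edgeR adjusted p = 0.777 and 0.907). With the suffix as a block the adjusted p was 0.276 for T and 0.100 for Eomes, and neither gene exceeded 5.91 CPM. Across these lists and those above, apart from Tet1 and its list, an unadjusted edgeR p under 0.05 was reached by 2 maintenance partners and by 1 gene each of the de novo, methyl donor, primitive streak and extraembryonic endoderm lists, and by 0 in the others. DESeq2 called 1 of these genes, the endoderm factor Sox7, named after its values were seen. It was at 0.750, 1.30, 0.727 and 1.46 CPM for lines KO1, KO9, KO15 and KO25, against 0.220, 0.209, 0.188 and 0.425 CPM for lines WT7, WT12, WT17 and WT34 (DESeq2 adjusted p = 0.0484), and its part in the values of the methyltransferases was not tested. In bulk RNA, fewer cells of a kind and less RNA per cell cannot be told apart.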

How the data were processed

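Per the labels, libraries were stranded and sequenced as single-end 50-base reads. The authors' methods give trimming by Trim Galore 0.6.4, after which they ran Salmon 0.14.1 and made gene tables with tximport in R 4.0.2. The deposited estimated counts and the deposited TPM are from the same quantification; the submitters' processing notes name mm10. Counts were rounded to whole numbers (27.8% of values changed). Salmon divides reads that fit several transcripts, and TPM depends on the lengths it assigns.

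The members and all gene lists were chosen with earlier results of these data known. In R 4.3.3, edgeR 4.0.16 kept 17272 genes (filterByExpr), normalized by TMM and compared 4 KO with 4 WT lines over all genes; quasi-likelihood p-values were adjusted after Benjamini and Hochberg and called at 0.05. CPM are counts over TMM-scaled library size. The suffix was tested with genotype in the model, and the interaction in a model with both. Ratios and lengths were compared by two-sided exact permutation over 70 assignments, or 36 within suffix. Alternatives were DESeq2 1.42.0 as size factors or test, library size alone, no filter, at least 10 counts in every library, limma 3.58.1 on log2(TPM + 1) and log2(TPM + 0.1) for genes of at least 1 TPM on average, suffix as a block, each suffix alone, CPM in place of TPM, and each line left out. The fits without WT12 under other models, CPM per kb of the longest coding transcript, and the TPM permutation tests were chosen after seeing the data. Effective length is count over TPM, scaled on genes with 1 transcript of at least 2000 bases and at least 100 counts in every library. The tests were first tested on simulated data. In its genotype runs the simulation held no suffix difference, unlike the real libraries, so it cannot show how the test without the suffix behaves there. Each library is a separate ESC line, but lines, cultures and libraries cannot be separated. Correlations between libraries over genes were 0.967 to 0.991 (log2(CPM + 1)), and none was a copy. Promoter sequences are from RefSeq (GRCm38.p6, 5 of 5 genes matched). Transcripts are from GENCODE M21, another release than the authors used.

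Genes named were the 5 members, from each list up to 4 genes lowest in p between genotypes and up to 2 between suffixes, the 3 genes most correlated with each member, and Tet1 as the label check; some genes that this rule names are not reported here. Dnmt3c and Gm5648 were singled out after their values or sequences were seen.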

Additional observations from a re-analysis of the deposited data

Results flagged for a closer look

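Of 41 groups of 4 libraries examined, 4 held a library far from the other 3, and chance gives about 1 such group in 20. Uhrf1 was at 120 TPM in KO25, against 150 to 155 TPM in the other KO lines. Dnmt3a was at 939 CPM in WT34, against 570 to 631 CPM in the other WT lines. WT34 was near the b2 libraries KO15 and KO25, at 899 and 942 CPM. The WT lines hold both suffixes, between which Dnmt3a was called. The approximate effective length of Dnmt3a was 1085 bases in KO25, against 1038 to 1044 bases in the other KO lines. Dnmt3c was at 76.9 CPM in WT12, against 0.659 to 1.04 CPM in the other WT lines, and this gene was added to the examination after its value had been seen.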

How the results depend on the processing

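Between KO and WT lines 0 of the 5 genes were called under all 21 alternatives, and Dnmt1, Dnmt3b and Dnmt3l kept their sign in all 19 that give a value per gene. Uhrf1 turned to −0.0126 in both limma fits, to −0.0355 in b1 alone and to −0.0687 with the suffix as a block and WT12 left out (range without single lines −0.0798 to 0.0865). Dnmt3a turned to −0.0659 in b1 alone and to −0.0509 with the block and WT12 left out (range without single lines −0.0233 to 0.30). For the suffix, the count of genes called was 0 in limma and among WT lines alone, 2 without WT12 with or without a genotype term, and 1 to 2 over the fits without single lines. Dnmt1 turned to 0.0176 in limma, and Dnmt3l ran from −0.19 to 0.44 without single lines. The interaction ran from −0.0491 to 0.15 for Dnmt1, −0.0530 to 0.13 for Dnmt3b, −0.37 to 1.32 for Dnmt3l and −0.0923 to 0.35 for Uhrf1 without single lines. The log2 ratio Dnmt3b to Dnmt3a was 0.11 in b1 alone and −0.23 to 0.10 without single lines; the other 4 ratios kept their sign in all 13 alternatives, but not their size. Without single lines, Dnmt3a plus Dnmt3b over Dnmt1 ran from 0.10 (without WT7) to 0.29, the 3 de novo genes over Dnmt1 plus Uhrf1 from 0.014 (without KO25; 0.021 without WT7) to 0.24, Dnmt3l over Dnmt3a plus Dnmt3b from 0.084 (without WT12) to 0.55, and Uhrf1 over Dnmt1 from 0.048 (without WT12) to 0.22. The length difference changed sign without single lines for Dnmt3a (−0.0350 to 0.0329), Dnmt3b (−0.0102 to 0.0128), Dnmt3l (−0.0195 to 0.0331) and Uhrf1 (−0.00515 to 0.0303). The cause was not tested. Over all genes, DESeq2 called 106 between genotypes against 7 in edgeR, the suffix alternatives called 271 to 5299 against 4253, and 43.5% of the suffix calls were higher in b2 with library size alone, against 54.3% with DESeq2 size factors and 2359 of 4253 with TMM. With 4 lines a group, p from permutation cannot go below 0.0286, and the intervals, widest for Dnmt3l, set what could be seen. After adjustment over 5 genes, ratios or lengths, 1 of them alone at 0.0286 would not pass. No paired analysis was possible because the lines were derived as littermate pairs but the sources used here do not say which line pairs with which, and replicate numbers were given in accession order.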
